A study of Mus musculus with 13 samples.

Results

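Histone genes were followed on 13 arrays of quadriceps RNA, each from a male C57Bl/6 mouse of 4 months. The groups were SKM-KO (n = 3), set against C (n = 3), and SKM-Tg (n = 4), set against Wt (n = 3). The series describes ablation and gain of function of DOR, an earlier name of Trp53inp2, in skeletal muscle. SKM-KO was read as the ablation and SKM-Tg as the gain from their names; the Trp53inp2 signal was lower than in its control in SKM-KO and did not pass the test in SKM-Tg. The labels do not spell out the names, so the pairing of each group with its control rests on the naming. The promoter that drives the transgene, the way the gene was deleted and the alleles that C and Wt carry are not given in the sources used here. All mice ate standard chow, and the labels name no batch. Numbers such as Wt 3 only name an array within its group.

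The genes were chosen by symbol: those that start with H1f, H2ac, H2bc, H2az, H2ax, H3c, H3f3, H4c or Macroh2a, on probe sets with exactly 1 gene symbol. This gave 37 probe sets of 26 genes, out of 28898 probe sets of 17097 genes with 1 symbol. A further 3 probe sets, of H2ac18 with H2ac19 and of H3f3a with its pseudogene, carried several symbols and were not used. The set was put together because H3c11 had been seen to lie on opposite sides of its controls in SKM-KO and SKM-Tg, and H2bc21 was singled out with it. Values of H3c11 and H2bc21 in these comparisons are therefore given as a description. Both stayed in the fit over all genes, but counts of genes past a threshold are given for the 21 other genes. Where a gene had several probe sets, the one with the highest mean over all arrays was used. Tests ran on genes whose mean log2 signal reached 4.90, the median over all probe sets other than controls, and 23 of the 26 genes did. H1f8, H2bc18 and H4c11 stayed below it, with means of 4.38, 4.18 and 3.38.

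Histones package DNA: H2A, H2B, H3 and H4 form the core of the nucleosome, and linker histone H1 binds where the DNA enters and leaves it. Most genes for them lie in dense clusters, are transcribed mainly while DNA is replicated, and give mRNAs that end in a stem-loop instead of a poly(A) tail. Replacement histones such as H2A.Z, H3.3 and macroH2A come from single genes outside these clusters and are made throughout the life of a cell, and muscle fibres no longer divide. The cluster genes code for nearly identical proteins, so a probe set can also bind mRNA of a sister gene. The levels of single cluster genes are uncertain for that reason. Of the 26 genes, 15 were cluster genes and 8, H2ax among them, were counted as replacement histones. The other 3 (H1f6, H1f7 and H1f8) were linker histones known from germ cells. By their RefSeq annotation, in which all 26 were found, 13 lie on chromosome 13 and 5 on chromosome 3.

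Upstream sequences are shown for H3c11, for its nearest measured neighbour H2bc22, and for H1f4 and H4c8, a pair of genes whose signals swung together in the SKM-Tg and Wt arrays. Each run is the 250 bases before the gene start from RefSeq (build GRCm38.p6), read 5′ to 3′ on the gene's strand. Capitals mark matches of letters on either strand to 4 motifs. These were TATAAA for the TATA box, CCAAT for the CCAAT box, AAACACA for the box of H1 promoters and TTTCGCGC for an E2F-type site. Whether a match serves as such an element was not tested.
H3c11 (chr13:21783398-21783647, - strand): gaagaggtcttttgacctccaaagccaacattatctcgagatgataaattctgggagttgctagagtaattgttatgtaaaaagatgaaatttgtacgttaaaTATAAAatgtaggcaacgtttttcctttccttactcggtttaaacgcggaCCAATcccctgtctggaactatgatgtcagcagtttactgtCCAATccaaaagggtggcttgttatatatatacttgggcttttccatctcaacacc
H2bc22 (chr13:21787238-21787487, + strand): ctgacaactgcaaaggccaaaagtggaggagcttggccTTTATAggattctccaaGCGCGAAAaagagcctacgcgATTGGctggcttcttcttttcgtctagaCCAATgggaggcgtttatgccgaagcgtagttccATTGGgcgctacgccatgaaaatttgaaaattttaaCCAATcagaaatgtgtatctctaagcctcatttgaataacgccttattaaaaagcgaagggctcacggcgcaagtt
H1f4 (chr13:23622559-23622808, - strand): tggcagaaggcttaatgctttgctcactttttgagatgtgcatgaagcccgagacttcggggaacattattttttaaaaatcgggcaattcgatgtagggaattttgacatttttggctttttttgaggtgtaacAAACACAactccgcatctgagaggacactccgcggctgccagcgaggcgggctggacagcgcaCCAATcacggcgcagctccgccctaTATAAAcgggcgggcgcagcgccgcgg
H4c8 (chr13:23530794-23531043, + strand): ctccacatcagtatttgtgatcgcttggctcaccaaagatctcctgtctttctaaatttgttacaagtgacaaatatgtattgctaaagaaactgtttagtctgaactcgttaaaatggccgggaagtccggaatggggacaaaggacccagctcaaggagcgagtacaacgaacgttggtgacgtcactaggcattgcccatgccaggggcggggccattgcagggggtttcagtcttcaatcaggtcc
H3c11 held TATAAA 147 bases before its start and CCAAT 97 and 56 bases before it. In H1f4, TATAAA lay 27, CCAAT 52 and AAACACA 115 bases before the start. H2bc22 held 4 copies of CCAAT, and no searched motif was found in this window of H4c8. The octamer ATTTGCAT, known from H2B promoters, and TTTGGCGC were also searched and were in none of these 4 windows. No searched motif overlapped another. Among the 11 cluster genes with a sequence in the table, 5 held TATAAA and 6 held CCAAT, against 12.4% and 33.8% of all 32851 windows of the same length. AAACACA was in 2, ATTTGCAT in 1 and TTTCGCGC in 1 of the 11, against 6.25%, 1.6% and 0.256% of all windows, and TTTGGCGC in 0, against 0.417%. Of the 26 genes, 21 had a sequence there.

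Trp53inp2 averaged 8.79 in SKM-KO and 11.13 in C, a difference of -2.35 (limma adjusted p 3.76e-06). In the arrays labelled SKM-Tg it averaged 11.16, against 11.22 in Wt, a difference of -0.06 (95% interval -0.33 to 0.22, limma adjusted p 0.887). This probe set thus does not show a gain in SKM-Tg, and whether it would detect the transgene's transcript was not tested. Of 10411 genes tested, limma called 1 in SKM-KO minus C (0.00961%), 0 in SKM-Tg minus Wt and 2 for the difference between these effects (0.0192%). Markers of muscle fibres were bright in all arrays: 14 of 15 were above the filter, with mean log2 signals of 12.22 to 12.25 in SKM-KO, 12.20 to 12.24 in C, 12.10 to 12.22 in SKM-Tg and 12.21 to 12.27 in Wt. Transcripts of other cells in the tissue were also measured, among them 10 of 12 macrophage and 10 of 10 endothelial markers. The arrays were not equally tight: the median standard deviation (SD) of a gene between arrays was 0.10 in SKM-KO, 0.10 in C, 0.17 in SKM-Tg and 0.25 in Wt.

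H3c11 encodes the replication-dependent histone H3.1. Its single probe set gave log2 signals of 4.96, 5.11 and 4.92 in SKM-KO, against 5.34, 5.38 and 5.23 in C. The signals were 5.91, 6.08, 5.97 and 6.04 in SKM-Tg, against 5.37, 5.43 and 5.42 in Wt. Every SKM-KO array lay below every C array, and every SKM-Tg array lay above every Wt array. The differences were -0.32 (1.25-fold lower) in SKM-KO and 0.59 (1.51-fold higher) in SKM-Tg. Within groups the SD was 0.10 in SKM-KO, 0.08 in C, 0.07 in SKM-Tg and 0.03 in Wt. The mean of 5.47 over all arrays is near the filter. With each array left out in turn and under the other settings, the SKM-KO value ran from -0.38 to -0.27 and the SKM-Tg value from 0.56 to 0.65. The 75th percentile filter gave no value, because the gene was too dim for it.

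H2bc21 encodes an H2B variant known from olfactory neurons of the mouse. It had signals of 5.63, 5.56 and 5.46 in SKM-KO, against 5.6, 5.66 and 5.46 in C, which overlap. In SKM-Tg it had 5.83, 5.87, 6.08 and 5.78, against 5.39, 5.19 and 5.73 in Wt. All SKM-Tg arrays were above all Wt arrays, but Wt 3 came within 0.05 of the lowest of them. The differences were -0.02 in SKM-KO and 0.45 (1.37-fold) in SKM-Tg. Over the other settings the SKM-Tg value ran from 0.33 to 0.60.

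**Figure D1:**
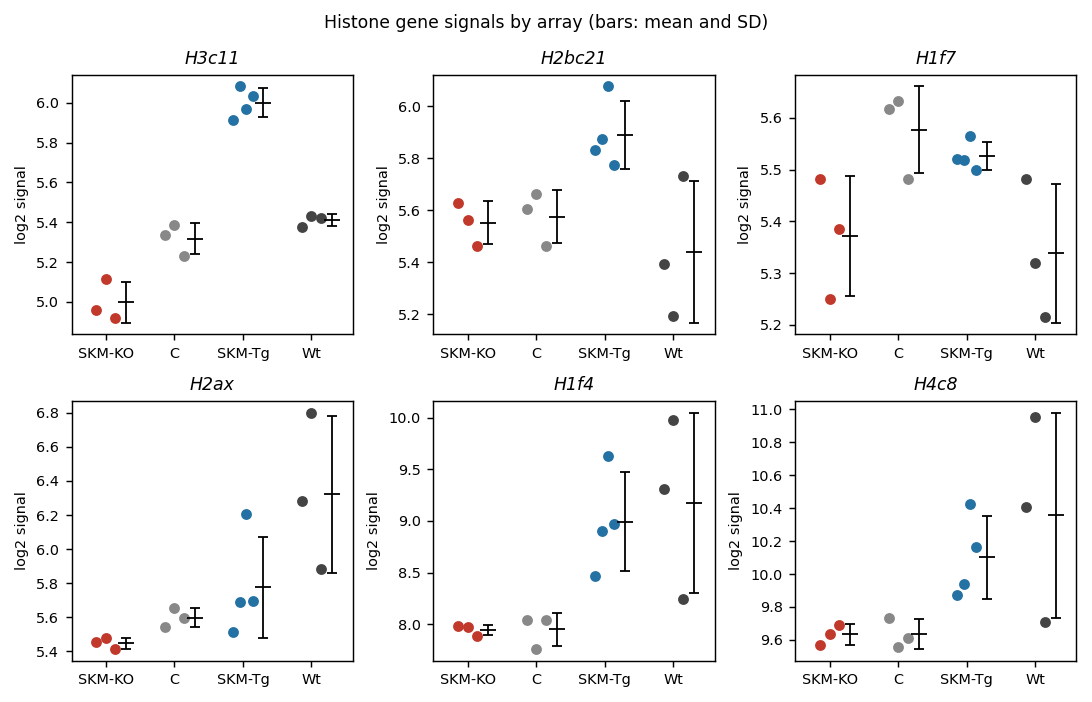
Log2 signal of 6 histone genes in each array (points), with the mean and SD beside each group, in SKM-KO, C, SKM-Tg and Wt. H3c11 is below C in all SKM-KO arrays and above Wt in all SKM-Tg arrays, whereas H1f4 and H4c8 lie close together in SKM-KO and C and spread widely in SKM-Tg and Wt.

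The neighbours of these genes had other values. In the annotation H3c11 lies between H1f5 and the H2ac22 and H2bc22 pair. H2bc22, a cluster H2B, was the measured gene nearest to it, with a difference of -0.02 in SKM-KO and -0.25 in SKM-Tg. H2bc21 lies beside H3c15 on chromosome 3, with H3c14 close by, and both code for H3.2. H3c15 differed by -0.22 and -0.23, and H3c14 by 0.03 and -0.30, in SKM-KO and SKM-Tg. Neither gene passed in either comparison.

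In SKM-KO minus C, 0 of the 21 other genes passed limma's adjusted threshold. At an unadjusted p under 0.05 there were 0 on the lower side, where 0.288% of all genes stood, and 0 on the higher side, against 0.269%. The median difference of the 21 genes was -0.05, against 0.01 over all genes, with 17 negative and 4 positive. Of all 10411 genes, 4789 were negative. Besides H3c11, groups did not overlap for 4 genes, all lower in SKM-KO, against 2.83% of all genes lower and 4.66% higher. These were the H3.2 gene H3c7, H2ax, H2az1 and Macroh2a1. H3c7 differed by -0.11, H2ax by -0.15, H2az1 by -0.06 and Macroh2a1 by -0.05, each with a 95% interval that includes 0. H3c7 had signals of 5.48, 5.44 and 5.51 in SKM-KO, against 5.62, 5.61 and 5.54 in C. The 3 against 3 arrays of this comparison cannot reach an exact permutation p under 0.10.

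Of the 21 genes, the smallest unadjusted p in SKM-KO minus C belonged to H1f7, a linker histone of spermatids, at -0.21 (SE 0.10, limma adjusted p 1). Its signals of 5.48, 5.25 and 5.39 in SKM-KO, against 5.62, 5.63 and 5.48 in C, touch at 5.48. The dimmer probe set of H1f7, below the filter, gave -0.16. H3f3b, one of the genes of the replacement histone H3.3, was on the other side at 0.16 (95% interval -0.20 to 0.51). Its second probe set gave 0.10. H3c15 had the next smallest p after H1f7, at -0.22 (95% interval -0.57 to 0.13). The 11 cluster genes other than H3c11 and H2bc21 ranged from that value up to 0.07 in H4c9. H4c8, a cluster H4, was at -0.00 (95% interval -0.52 to 0.52), H1f4 at -0.00 (-0.77 to 0.76), and H2bc4, a cluster H2B, at -0.00 (-0.20 to 0.19).

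In SKM-Tg minus Wt, 0 of the 21 other genes passed limma's adjusted threshold, as did 0% of all genes. At an unadjusted p under 0.05 there were 0 on the higher side, against 1.5% of all genes, and 1 on the lower side, H2ax, against 5.39%. The median of the 21 genes was -0.05, against -0.05 over all genes, with 9 positive and 12 negative. Among the 13 cluster genes above the filter, which include H3c11 and H2bc21, 9 were negative and the median was -0.15. Of all 10411 genes, 6471 were negative. Besides H3c11 and H2bc21, SKM-Tg lay wholly above Wt for 1 gene, H1f7, against 1.18% of all genes, and wholly below it for 0, against 2.79%.

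H2ax encodes the H2A variant that is phosphorylated around DNA breaks. Its signals were 5.52, 5.69, 6.20 and 5.70 in SKM-Tg, against 6.28, 6.8 and 5.88 in Wt. SKM-Tg 3 lay above Wt 3, so that the groups overlapped. The difference was -0.55 (SE 0.19, limma adjusted p 0.702), with a range of -0.77 to -0.31 over the other settings. In the other line H2ax had 5.45, 5.48 and 5.41 in SKM-KO, against 5.54, 5.65 and 5.6 in C. H1f7 had 5.52, 5.52, 5.57 and 5.5 in SKM-Tg, against 5.48, 5.32 and 5.22 in Wt, a difference of 0.19 (SE 0.09, limma adjusted p 0.702). The germ cell gene H1f6 differed by -0.23 (SE 0.15).

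For the difference between the SKM-Tg and SKM-KO effects, H3c11 stood at 0.91 and H2bc21 at 0.47. Of the 21 other genes 0 passed limma's adjusted threshold. At an unadjusted p under 0.05, 1 of them was on the higher side, against 0.74% of all genes, and 0 on the lower side, against 2.36%. That gene was H1f7, at 0.39 (SE 0.14, limma adjusted p 0.989). Next came H2ax at -0.40 (SE 0.28), the somatic linker histone H1f2 at -0.20 (SE 0.15), H3f3a at 0.15 (SE 0.13) and H2bc22 at -0.23 (SE 0.22), with a limma adjusted p of 0.989 each.

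**Figure D2:**
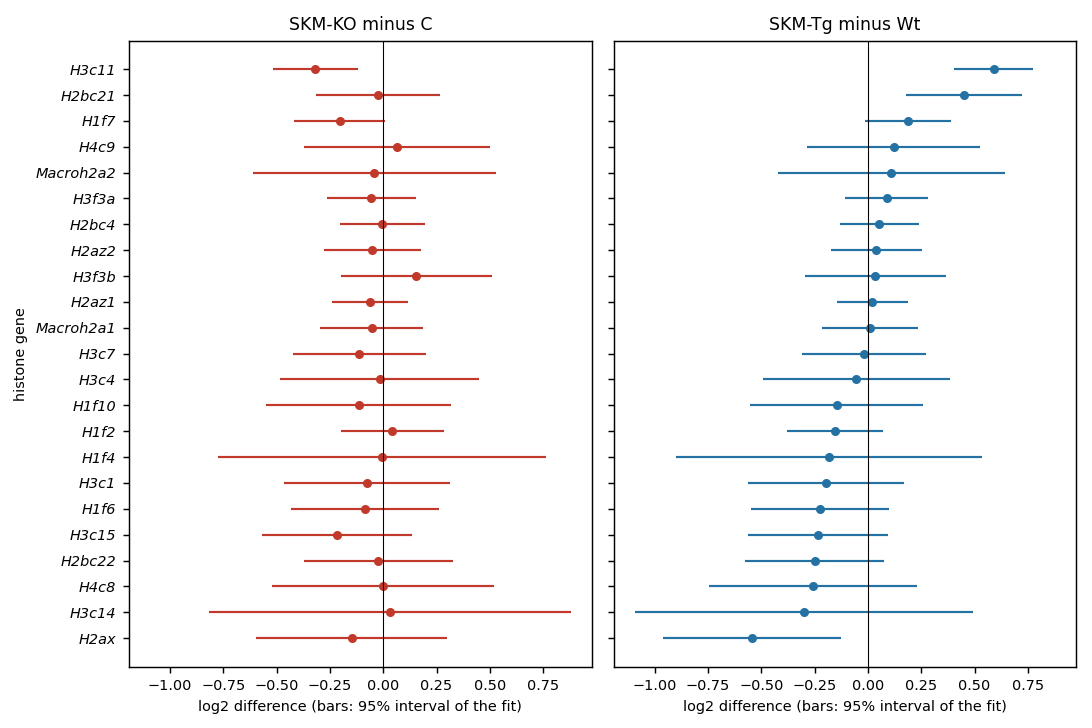
Log2 difference of each of the 23 histone genes above the filter in SKM-KO minus C (left) and SKM-Tg minus Wt (right), with bars for the 95% interval of the fit. H3c11 is at -0.32 on the left and at 0.59 on the right, and most other genes have intervals that include 0 in both.

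In the probe sets used, most cluster genes were high and low in the same arrays of SKM-Tg and Wt. H1f4, a replication-dependent linker histone, had signals of 8.47, 8.90, 9.63 and 8.97 in SKM-Tg, against 9.31, 9.97 and 8.24 in Wt. H4c8 had 9.87, 9.94, 10.43 and 10.17 in SKM-Tg, against 10.41, 10.95 and 9.71 in Wt. In both genes Wt 2 was the highest array of all 13, SKM-Tg 3 the highest of its group and Wt 3 the lowest of the 7. The same genes were tight in the other line: H1f4 had 7.98, 7.97 and 7.89 in SKM-KO, against 8.04, 7.76 and 8.04 in C. H4c8 had 9.57, 9.64 and 9.69 in SKM-KO, against 9.73, 9.56 and 9.61 in C.

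H3c14 had 8.07, 8.31, 8.90 and 7.59 in SKM-Tg, against 8.35, 9.5 and 7.70 in Wt. H3c4, another H3.2 gene, had 7.60, 7.68, 8.14 and 7.64 in SKM-Tg, against 7.63, 8.42 and 7.40 in Wt. H3c1, which codes for H3.1 as H3c11 does, had 11.41, 11.61, 11.90 and 11.52 in SKM-Tg, against 11.94, 12.15 and 11.33 in Wt. Again Wt 2 was highest and SKM-Tg 3 led its group in these probe sets. In the second probe set of H3c4, above the filter, SKM-Tg 3 led its group at 6.04. Wt 2 did not stand out there, with an SD of 0.01 in Wt. The second probe sets of H1f4, H3c14 and H3c1 were below the filter, and in them neither array led its group. H2bc22 had 9.07, 9.03, 9.42 and 8.96 in SKM-Tg, against 9.31, 9.75 and 9.05 in Wt. Its second probe set kept the pattern, with 9.16 in Wt 2 and 8.86 in SKM-Tg 3. That probe set carries the _x_at suffix, and whether it reads H2bc22 alone was not tested. H3c7 had 5.76, 5.61, 5.85 and 5.61 in SKM-Tg, against 5.54, 6.12 and 5.51 in Wt. Not all cluster genes did this: the SD in Wt was 0.11 for H1f2 and 0.14 for H2bc4. It was 0.03 for H3c11, but that gene was chosen because its groups lay apart, which favours a small spread. H4c9, another cluster H4, ran the other way in Wt, at 7.12, 7.35 and 7.76, and had 7.86, 7.57, 7.61 and 7.07 in SKM-Tg.

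This pattern was noticed in the values and then counted, with the probe set of highest mean for each gene. Wt 2 was the highest of all arrays for 8 of 13 cluster genes, 3 of 8 replacement genes and 39.3% of all genes tested. SKM-Tg 3 was the highest of its group for 9 of 13 cluster genes, 2 of 8 replacement genes and 44.3% of all genes. Wt 1 and Wt 2 both exceeded Wt 3 for 9 of 13, 3 of 8 and 51.0%. H2ax and Macroh2a1 were among the replacement genes in each of these counts. The same arrays thus stood apart over a large share of the genes on the array. Without H3c11 and H2bc21, the 11 cluster genes had a median SD of 0.06 in SKM-KO, 0.07 in C, 0.21 in SKM-Tg and 0.35 in Wt. For the 8 replacement genes the medians were 0.04, 0.08, 0.12 and 0.31 in the same order of groups.

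**Figure D3:**
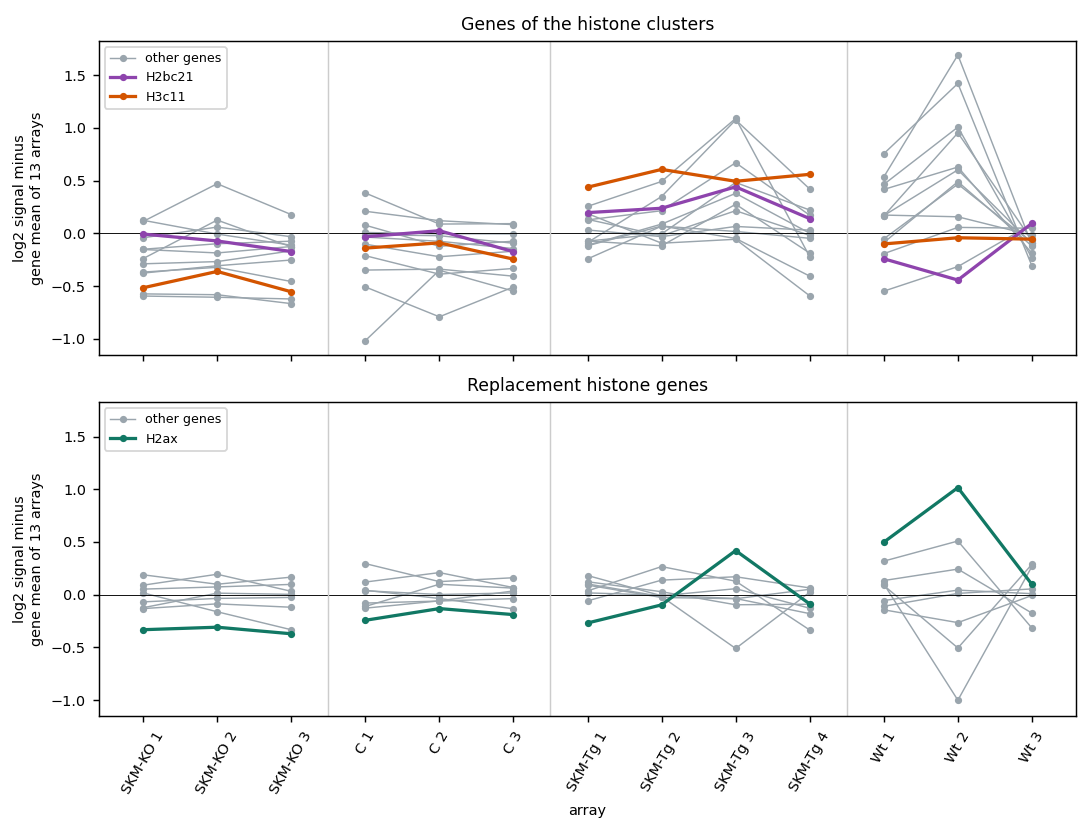
Log2 signal of each histone gene above the filter minus its own mean over all 13 arrays, by array, for 13 cluster genes (top) and 8 replacement genes (bottom). Most cluster genes peak in Wt 2 and SKM-Tg 3. H3c11 is level within each group, but it was chosen because its groups lay apart, which favours a small spread.

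**Figure D4:**
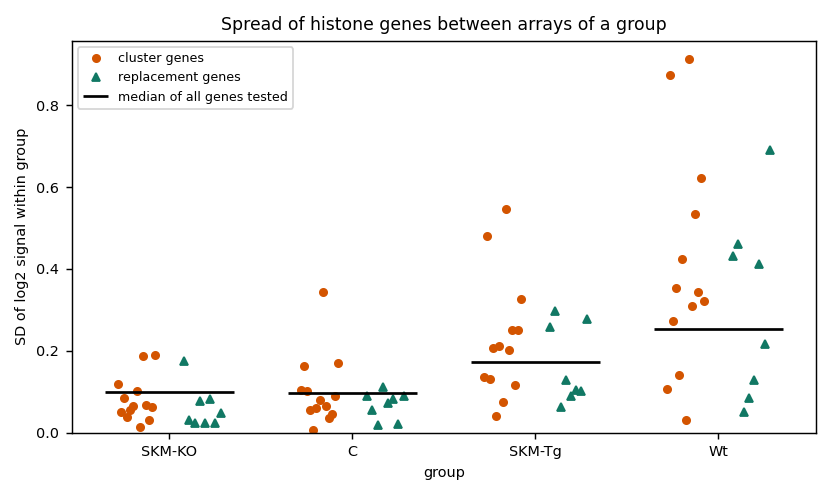
SD of the log2 signal within each group for cluster genes (circles) and replacement genes (triangles), with the median of all genes tested as a black line. Medians of all genes are 0.10 in SKM-KO, 0.10 in C, 0.17 in SKM-Tg and 0.25 in Wt, and the largest values of the cluster genes are in Wt.

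Several, but not all, lists of markers of other cells moved with the cluster genes over these arrays. As a median deviation from the mean of the 7 SKM-Tg and Wt arrays, the 11 cluster genes stood at -0.19, -0.09, 0.19 and -0.15 in SKM-Tg and 0.00, 0.49 and -0.20 in Wt. The 10 macrophage markers stood at -0.50, -0.33, 0.34 and 0.12 in SKM-Tg and 0.15, 0.52 and -0.17 in Wt. The 10 endothelial markers stood at -0.32, -0.27, 0.23 and 0.03 in SKM-Tg and 0.09, 0.21 and -0.02 in Wt. Each of these lists was highest in Wt 2 or SKM-Tg 3. In Wt 2 the satellite cell markers stood at 0.66, the red blood cell markers at 0.45, the fibroblast markers at 0.29, the lymphocyte markers at 0.27 and the nerve markers at 0.20. In SKM-Tg 3 the red blood cell markers stood at 0.18 and the nerve markers at 0.27, but the satellite cell markers at -0.02. Fat cell markers did not follow in SKM-Tg: they were highest in SKM-Tg 2, at 0.79, against -0.01 in SKM-Tg 3. In Wt they stood at -0.39, 0.15 and -0.55, with Wt 2 highest and Wt 3 lowest, as for the cluster genes. As mean log2 signals, the macrophage markers ranged from 5.77 to 6.56 in SKM-Tg and from 6.10 to 6.64 in Wt, while the endothelial markers ranged from 7.96 to 8.50 in SKM-Tg and from 8.32 to 8.54 in Wt. Of all 10411 genes, 6471 were negative in SKM-Tg minus Wt and 5622 were positive in SKM-KO minus C. In the SKM-Tg comparison 9 of 10 macrophage markers were negative, with a median of -0.27, and 9 of 10 endothelial markers, with a median of -0.22. In SKM-KO minus C all 10 macrophage markers were positive, with a median of 0.20, and so were the 3 nerve markers measured, with a median of 0.33. Fat cell markers (4 of 7 measured) were all positive in SKM-Tg minus Wt, with a median of 0.46 (0.22 in SKM-KO minus C), and satellite cell markers (2 of 6) were both negative, at -0.44 (-0.25). Fewer markers of lymphocytes (2 of 9), fibroblasts (6 of 8), nerve (3 of 6) and red blood cells (3 of 5) were measured, and 0 of any list passed limma's adjusted threshold. The part of these cells in the histone signals was not tested, and in whole muscle a change in their number and a change of RNA per cell cannot be told apart.

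Proliferation genes, which are transcribed in dividing cells, were measured for 15 of 30 list members. Their mean signal ranged from 5.90 to 6.04 in SKM-Tg and from 5.85 to 6.17 in Wt, with Wt 2 highest, and from 5.74 to 5.91 in SKM-KO and from 5.79 to 5.89 in C. In the list 0 members passed limma's adjusted threshold in either comparison. At an unadjusted p under 0.05 there were 0 in SKM-KO minus C and 1 in SKM-Tg minus Wt, Mcm3 of the replicative helicase, at -0.37 (SE 0.13). In SKM-Tg minus Wt, 5.39% of all genes were lower at that threshold. The helicase subunits Mcm7 and Mcm2 stood at 0.34 and -0.45 in SKM-Tg minus Wt. In SKM-KO minus C the smallest p-values were those of cyclin Ccne1 at -0.16, Ube2c at -0.15 and the thymidine kinase Tk1 at -0.18.

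**Figure D5:**
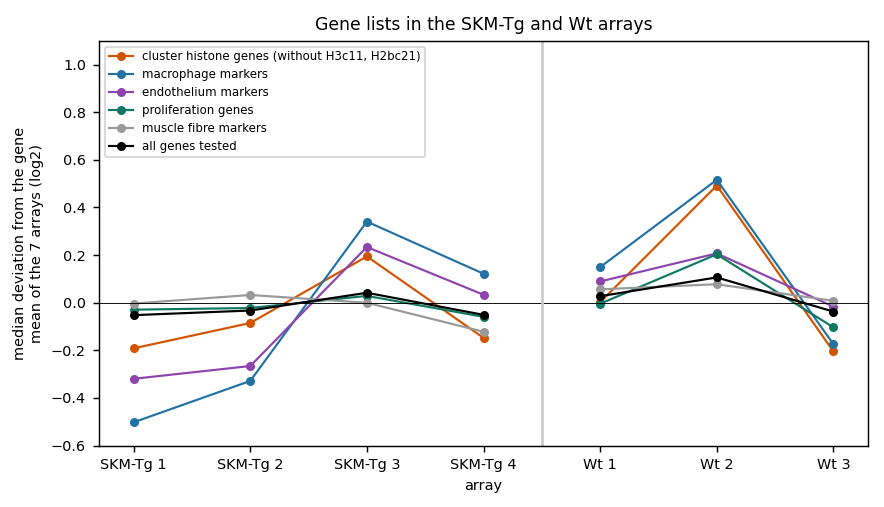
Median deviation of gene lists from the gene means of the 7 SKM-Tg and Wt arrays (log2), by array. Cluster histone genes and macrophage markers are highest in Wt 2, at 0.49 and 0.52, while all genes tested stay between -0.05 and 0.11.

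Of the 8 replacement histones 0 passed in either comparison, and apart from H2ax their differences lay between -0.15 and 0.16. H2az1 and H2az2 encode H2A.Z, which sits at promoters. H2az1 averaged 8.71 ± 0.02 in SKM-KO and 8.78 ± 0.02 in C (SD, n = 3 each), and 8.78 ± 0.06 (SD, n = 4) in SKM-Tg against 8.76 ± 0.05 (SD, n = 3) in Wt. The interval of its difference ran from -0.24 to 0.11 in SKM-KO and from -0.15 to 0.19 in SKM-Tg. H2az2 differed by -0.05 and 0.04. Its second probe set gave -0.16, with SKM-KO at 7.84, 7.94 and 7.95 below C at 8.0, 8.20 and 8.01, and 0.16 in SKM-Tg minus Wt. H3f3a, which like H3f3b codes for H3.3, differed by -0.06 in SKM-KO and 0.09 in SKM-Tg.

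MacroH2A carries a large extra domain and is enriched on the inactive X chromosome. Macroh2a1 averaged 9.71 ± 0.02 in SKM-KO and 9.76 ± 0.02 in C (SD, n = 3 each), and differed by 0.01 between SKM-Tg and Wt. Macroh2a2 had signals of 7.95, 7.83, 7.33 and 7.87 in SKM-Tg, against 7.95, 6.84 and 8.11 in Wt. Here Wt 2 and SKM-Tg 3 were the lowest arrays of their groups. In Wt, H3f3b was likewise lowest in Wt 2, at 9.34 against 9.94 in Wt 1 and 10.14 in Wt 3. Its second probe set had 9.91 in Wt 2, against 9.95 in Wt 1 and 9.89 in Wt 3, and lay below Wt in every SKM-Tg array, at -0.16. In the second probe set of Macroh2a2, SKM-Tg 3 was the highest of its group, at 7.07. H1f10, a linker histone made outside replication, differed by -0.12 in SKM-KO and -0.15 in SKM-Tg.

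Several genes had probe sets that went different ways. Of 11 genes with several probe sets, 2 had opposite signs in SKM-KO minus C, H3c14 and H3f3a, and 7 in SKM-Tg minus Wt: H1f4, H1f7, H3c1, H3c14, H3c4, H3f3a and H3f3b. In SKM-Tg minus Wt the brighter and dimmer probe sets gave -0.18 and 0.43 for H1f4, -0.20 and 0.31 for H3c1 and -0.30 and 0.08 for H3c14. The dimmer probe sets of these 3 genes were below the filter. For H3c4 they gave -0.05 and 0.16, for H1f7 0.19 and -0.07, for H3f3a 0.09 and -0.07, and for H3f3b 0.03 and -0.16. In SKM-KO minus C they gave 0.03 and -0.09 for H3c14, and -0.06 and 0.00 for H3f3a. The brighter probe sets of H3c1 and H3c14 carry the _s_at suffix, by which the maker marks probes that match several transcripts. H3c11, H2bc21 and H2ax have 1 probe set each.

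Genes that make or place histones were examined as well. Of 23 listed genes of histone mRNA synthesis and 3′ end processing, 15 were above the filter and 0 passed limma's adjusted threshold in either comparison. At an unadjusted p under 0.05 there was 1 in SKM-KO minus C, against 0.269% of all genes on the higher side, and 0 in SKM-Tg minus Wt. That gene was Slbp, whose protein binds the stem-loop of histone mRNA, at 0.33 (SE 0.15, limma adjusted p 1). Npat, the coactivator of histone genes, stood at 0.11 and the cap-binding Ncbp1 at 0.07 in SKM-KO. In SKM-Tg the smallest p-values were those of the helicase Upf1 at -0.17, E2f1 at 0.18 and E2f4 at -0.23. The list medians were 0.02 in SKM-KO and -0.04 in SKM-Tg, against 0.01 and -0.05 over all genes.

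Of 33 listed chaperones and exchange factors 23 were above the filter, and 0 passed the adjusted threshold in either comparison. In SKM-Tg minus Wt 2 were lower at an unadjusted p under 0.05, against 5.39% of all genes. They were the histone importin Ipo4 at -0.44 (SE 0.19) and the H3.3 chaperone Hira at -0.30 (SE 0.13), and Set stood at 0.42. In SKM-KO minus C there were 0; Dnajc9 stood at -0.14, Ep400 at 0.13 and Ubn2 at -0.12. The medians were 0.01 in SKM-KO and 0.01 in SKM-Tg.

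Some histone genes separated the lines whatever the genotype, a pattern chosen after the values were seen. All 7 SKM-Tg and Wt arrays lay above all 6 SKM-KO and C arrays for 3 of the 23 genes, against 3.32% of all genes, and below them for 1, against 2.66%. H1f4 averaged 9.07 over the 7 arrays and 7.95 over the 6, H3c14 averaged 8.35 and 7.19, and H3c4 averaged 7.79 and 7.09. H3f3a was on the lower side, at 9.69 over the 7 arrays and 9.88 over the 6. In the second probe sets of H1f4, H3c14 and H3c4 the lines overlapped, and those of H1f4 and H3c14 were below the filter. That of H3c4, above the filter, had 5.23 in SKM-Tg 2 and 5.43 in C 1. The second probe set of H3f3a kept the 7 arrays below the 6, with Wt 3 at 8.53 and SKM-KO 1 at 8.55 the closest. The labels name no batch, so that line and any batch cannot be told apart.

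Single Wt arrays decided several values of SKM-Tg minus Wt, in opposite directions. Without Wt 3, 7 of the 21 other genes reached an unadjusted p under 0.05, all lower, where 30.8% of all genes reached it. They were H2ax at -0.77, H4c8 at -0.58, H3c1 at -0.43, H1f6 at -0.41, H2bc22 at -0.41, H1f4 at -0.65 and H1f10 at -0.39, and 0 of them passed limma's adjusted threshold. Without Wt 2, 0 of the 21 reached it, where 5.6% of all genes did, and signs turned: H1f4 stood at 0.22, H4c8 at 0.04, H3c14 at 0.19 and H3c4 at 0.25. H2ax stood at -0.31 without Wt 2. H3c11 stood at 0.60 without Wt 3 and at 0.60 without Wt 2, and H2bc21 at 0.60 and 0.33.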

How the data were processed

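Per the labels' protocols, quadriceps RNA came from TRIzol and column extraction, and 25 ng of it went through isothermal amplification and biotin labelling. How far this amplification copies the cluster gene mRNAs, which lack a poly(A) tail, was not tested. The deposited values are log2 signals that the authors made with RMA (background correction, normalization and probe set summary), per the submitters' processing notes, with no version given. They ran from 2.14 to 13.21, with array medians of 4.85 to 4.94; arrays have no read depth, so the number of arrays limits precision.

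Control probe sets (104), those with several symbols (551) and those with none here (15588) were set aside. All 13 arrays were fitted in limma 3.58.1 (R 4.3.3) as 4 group means with eBayes (degrees of freedom: 9 residual, 3.62 prior), two-sided, with Benjamini-Hochberg adjustment over 10411 genes and a threshold of 0.05. SE and intervals are those of the fit. The fit was tested on simulated data. Normalization, filter, probe set choice, variance model, groups fitted and each array left out were varied.

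Members, gene lists and tests were chosen with earlier results of these data known. Named were H3c11, H2bc21, Trp53inp2, all replacement genes, the 5 other members with the smallest p per comparison, members whose probe sets differ in sign, and 3 genes per pathway list. Other members were named as well, so that each is accounted for.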

Additional observations from a re-analysis of the deposited data

Results flagged for a closer look

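H3c11 lay on opposite sides of its controls in the lines: -0.32 in SKM-KO minus C, with every SKM-KO array below every C array, and 0.59 in SKM-Tg minus Wt, with every SKM-Tg array above every Wt array. The gene was chosen for this, so its values are a description and no test of them is used as support.

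H3c4 was far higher in SKM-Tg 3, at 8.14, than in the other SKM-Tg arrays, at 7.60, 7.68 and 7.64. Of the 23 genes examined this way in SKM-Tg, it was the 1 that stood out, and chance gives about 1 in 20. SKM-Tg was the 1 group large enough for this check.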

How the results depend on the processing

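Counts here cover all 23 genes and so include H3c11 and H2bc21, whose values led to their choice; their part in a count supports nothing. The sign of the difference was the same under all settings for 13 of 23 genes in SKM-KO minus C, 9 of 23 in SKM-Tg minus Wt and 9 of 23 for the difference of effects. In SKM-KO minus C no histone gene passed under any setting. The count at an unadjusted p under 0.05 was 1, where 0.557% of all genes stood. Below, shares of all genes, or of all probe sets where every one was used, follow in brackets. It was 2 with no filter (0.854%), with every probe set (0.834%), and with array quality weights of either kind (5.65%, and 7.08% by REML). It was 3 when only SKM-KO and C were fitted (2.74%), and 0 with the 75th percentile filter (0.308%), which removes H3c11. In SKM-Tg minus Wt 0 genes passed, but 7 did with array quality weights (2 higher, 5 lower: H3c11, H2bc21, H2ax, H1f6, H2bc22, H3c1 and H4c8), where 14.3% of all genes passed. The count at an unadjusted p under 0.05 was 3 (6.89%), but 4 with no filter (6.55%) and 2 when only SKM-Tg and Wt were fitted (2.85%). It was 5 with every probe set (6.43%) and 0 with the 75th percentile filter (6.35%). With array quality weights it was 11, where 33.1% of all genes stood. For the difference of effects, 1 gene passed, H3c11 (0.0192%), but 0 with median centring (0.00961%) and with the 75th percentile filter (0.0171%). With array quality weights 2 passed, as H2bc21 joined H3c11, and 2.22% of all genes passed. The count at an unadjusted p under 0.05 was 3 (3.1%), but 2 with the mean of probe sets (2.88%) and with weights by REML (1.7%). It was 6 with every probe set (3.09%) and 0 with the 75th percentile filter (2.76%). With weights it was 9, where 23.6% of all genes stood. Weights estimated by REML, added after the data were seen, did not reach the tolerance. They gave 1 gene at an unadjusted p under 0.05 in SKM-Tg minus Wt (0.74%) and 0 calls for the difference of effects.

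With 1 array left out in turn, passing histone genes numbered 0 to 0 in SKM-KO minus C and 0 to 1 in SKM-Tg minus Wt (H3c11 without Wt 3). For the difference of effects they numbered 0 to 0, and the call of H3c11 was lost each time. Of all genes, 0.00961% passed each time in SKM-KO minus C and 0% to 0.288% in SKM-Tg minus Wt (0.288% without Wt 3). For the difference of effects 0.00961% to 0.0192% passed. At an unadjusted p under 0.05 the histone genes numbered 1 to 2, 2 to 9 (9 without Wt 3) and 2 to 5. Of all genes, 0.346% to 0.932%, 3.89% to 30.8% (30.8% without Wt 3) and 1.74% to 15.1% stood there. No paired analysis was possible because the labels do not say which animals of different groups belong together. The signals of 8 genes (H1f10, H1f6, H1f7, H2ax, H2bc21, H3c11, H3c15 and H3c7) averaged under the 75th percentile of 6.65, so they are dim, which limits their precision.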
